A study of Mus musculus with 3 samples.

Results

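The genes of glycolysis, glycogen turnover and glucose transport were followed in differentiated C2C12 cells that were labelled as lacking Drp1, had been given FLAG-Drp1, or were wild-type. The set held 33 genes of the 46316 gene symbols in the deposited tables. They were chosen by symbol, and each gene was read from the transcript row with the highest count summed over the libraries. They comprised 12 isoforms that are prominent in skeletal muscle, 11 isoforms that are ubiquitous or prominent in other tissues, 5 enzymes for which 1 gene serves the step in these cells, 4 Pfkfb genes and Gpd1. Of the 33 genes, 29 reached a mean of 1 CPM (the gene count scaled to equal library totals) over the 3 libraries and were among the 13381 genes for which differences were counted. The other 4 were Aldoc, Slc2a3, Gpd1 and Phkg1.

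C2C12 is a line of immortalised mouse myoblasts, which form multinucleated myotubes on differentiation. Drp1, the product of Dnm1l, is the GTPase that divides mitochondria, and the series title ties mitochondrial dynamics to muscle fibre type through metabolism. Total RNA was sequenced from 1 library of each of 3 groups, all 4 days into myogenic differentiation. The rescue library came from Drp1-KO cells that transiently expressed FLAG-Drp1, the KO library from cells with the genotype Drp1 knockout, and the WT library from wild-type C2C12. No source used here tells how the knockout was made, whether it is 1 clone, or what the KO and WT cells received in place of FLAG-Drp1. With 1 library a group, no difference has a replicate check. Every interval given with a ratio is an exact 95% interval that covers counting error only, and all statements describe these 3 libraries.

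Glycolysis splits glucose into pyruvate in the cytosol and yields ATP without mitochondria, while glycogen phosphorylase supplies it with glucose units stored in the fibre. Several steps are served by gene families in which a muscle isoform replaces or joins a ubiquitous one as myotubes mature. Fast-twitch fibres rely on glycolysis more than slow-twitch fibres do, and slow and cardiac muscle hold more of the lactate dehydrogenase subunit encoded by Ldhb.

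The promoters are shown for 6 of the genes whose differences and isoform ratios are described next. Each line holds the 250 bases before a RefSeq gene start, 5′ to 3′ on the gene's own strand, from RefSeq with the build GRCm38.p6, which differs from the build named for the deposited counts. Capitals mark matches, on either strand, to 3 motifs: the E-box CANNTG read by myogenic factors, the hypoxia response core ACGTG, and the MEF2 motif. The sequence CACGTG counts as an E-box and, on both strands, as a pair of matches to ACGTG.
Pgam2 (chr11:5803797-5804046, minus strand): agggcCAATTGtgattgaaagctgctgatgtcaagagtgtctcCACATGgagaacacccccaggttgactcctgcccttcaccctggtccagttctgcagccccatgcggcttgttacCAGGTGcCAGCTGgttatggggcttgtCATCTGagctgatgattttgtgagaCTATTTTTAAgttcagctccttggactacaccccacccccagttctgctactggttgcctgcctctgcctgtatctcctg
Eno3 (chr11:70656926-70657175, plus strand): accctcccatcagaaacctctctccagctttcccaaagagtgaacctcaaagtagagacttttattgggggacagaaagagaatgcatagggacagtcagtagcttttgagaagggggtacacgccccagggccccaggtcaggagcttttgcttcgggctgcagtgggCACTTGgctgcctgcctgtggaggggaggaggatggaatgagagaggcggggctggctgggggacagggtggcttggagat
Pygm (chr19:6384158-6384407, plus strand): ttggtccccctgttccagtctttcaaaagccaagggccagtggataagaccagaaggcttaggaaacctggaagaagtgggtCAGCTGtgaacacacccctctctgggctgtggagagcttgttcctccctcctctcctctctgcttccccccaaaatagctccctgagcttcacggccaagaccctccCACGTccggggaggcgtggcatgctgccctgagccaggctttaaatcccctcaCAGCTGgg
Ldha, first of 2 starts (chr7:46845554-46845803, plus strand): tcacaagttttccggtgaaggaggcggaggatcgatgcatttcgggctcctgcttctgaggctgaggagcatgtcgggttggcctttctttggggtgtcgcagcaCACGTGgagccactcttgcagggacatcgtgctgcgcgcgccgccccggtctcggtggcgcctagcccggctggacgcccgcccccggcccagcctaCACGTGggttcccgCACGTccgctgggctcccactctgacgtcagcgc
Ldhb (chr6:142507958-142508207, minus strand): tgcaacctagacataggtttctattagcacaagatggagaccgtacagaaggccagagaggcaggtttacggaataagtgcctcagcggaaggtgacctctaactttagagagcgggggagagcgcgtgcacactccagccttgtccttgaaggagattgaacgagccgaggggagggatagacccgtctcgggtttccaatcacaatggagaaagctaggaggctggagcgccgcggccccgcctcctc
Pfkfb3, inner of 2 starts (chr2:11502091-11502340, minus strand): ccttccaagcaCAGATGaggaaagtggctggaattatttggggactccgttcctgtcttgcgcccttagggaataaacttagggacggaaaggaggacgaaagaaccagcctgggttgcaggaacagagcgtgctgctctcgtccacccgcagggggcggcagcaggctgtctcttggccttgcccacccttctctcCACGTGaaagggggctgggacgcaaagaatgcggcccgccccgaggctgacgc
The Pgam2 window held 5 E-boxes, among them CAGGTG and CAGCTG at 132 and 125 bases before the start, and a MEF2 match at 80 bases. Eno3 held 1 E-box, at 81 bases. Pygm held 2 E-boxes and 1 match to ACGTG. The first Ldha window held 5 matches to ACGTG in 3 places, at 144 to 145, 47 to 48 and 34 bases before the start. The window of the second Ldha start, not shown, held 2 E-boxes and no match to ACGTG. The Ldhb window held no match to any of the 3 motifs. Pfkfb3 held CACGTG at 53 bases before its inner start. Promoters were found for 30 of the 33 genes, in 47 windows, of which some from 1 gene overlap. The E-box stood in 32 of these windows (68.1%), against 66.2% of all 32851 mouse windows of this length. For ACGTG the count was 17 windows (36.2%), against 16.6% of all windows, and for MEF2 it was 2 windows, of Pgam2 and Pfkfb1 (4.26%), against 2.92%. A match describes the letters in the window and is not a binding site.

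Depth was close to equal, at 13925296 gene counts in rescue, 13790417 in KO and 13894114 in WT. Dnm1l had 1481 counts in rescue, 1284 in KO and 1823 in WT, so its transcript was still present in the library labelled KO, with a log2 ratio to WT of -0.48 (interval -0.58 to -0.38). All 10 markers of differentiated muscle were detected at 1 CPM or more, and together they made up 1.64% of the counts in rescue, 1.29% in KO and 1.43% in WT. Their median log2 ratio was -0.23 for KO over WT, 0.40 for rescue over KO and 0.14 for rescue over WT. For KO over WT they differed in direction, with 7 below 0 and 3 above, from -1.60 for Ckm to 0.47 for Myog. With a trend on transcript length, described further on, removed by the length of the highest row, the KO over WT median was -0.07. Of 6 fibroblast markers, which summed to 0.0144% of counts in rescue, 0.0149% in KO and 0.0383% in WT, 3 were counted and they differed in direction. Dcn had 1792, 1787 and 5177 counts in rescue, KO and WT, Pdgfra 191, 240 and 112, and Dpt 24, 24 and 4. Of the others, Col15a1 had 0, 0 and 21 counts in rescue, KO and WT, Lum 1, 0 and 9, and Thy1 0, 1 and 0. Their part in the differences of the set was not tested. The 6 adipocyte markers summed to 0.00121%, 0.00110% and 0.00114% in rescue, KO and WT, with Adipoq, Lep and Cfd at 0. Most of these counts came from Pparg, with 164, 147 and 159 in rescue, KO and WT. Fabp4 had 3, 5 and 0, and Plin1 had 1, 0 and 0. Neuron and hepatocyte markers were at 18 counts or fewer in each library. In such bulk samples fewer myotubes and less of a transcript per myotube cannot be told apart.

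Of the 29 genes counted, 19 (65.5%) had a lower level in KO than in WT, against 49.9% of all genes, most of them by less than 2-fold, and the muscle forms of phosphoglycerate mutase and enolase were lowest relative to WT. The 33 genes summed to 0.892% of the gene counts in rescue, 0.765% in KO and 1.10% in WT. At a threshold of 2-fold, Pgam2 and Eno3 were lower in KO than in WT, as 2 of the 29 genes counted, where 4.07% of all genes were lower. Pfkfb3 alone was higher, where 5.35% of all genes were higher. At 1.5-fold, 6 of 29 genes were lower (Pgam2, Eno3, Ldha, Eno1, Tpi1 and Pkm), where 10.4% of all genes were, and 2 were higher (Pfkfb3 and Ldhb), where 12.1% were. The median log2 ratio of KO over WT was -0.31 over the 29 genes and 0.0007 over all genes counted. It was -0.15 over the 11 counted muscle isoforms and -0.11 over the 9 counted ubiquitous or other-tissue isoforms. With the length trend removed by the length of the highest row, these 2 class medians were -0.26 and -0.28. With it removed by curated lengths, a choice added after the data were seen, they were -0.28 and -0.14.

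In rescue over KO, 10 of the 11 counted muscle isoforms had ratios above 0, against 6825 of all 13381 genes. The ubiquitous or other-tissue isoforms lay close to 0, with 6 of 9 above it. All 5 single-gene steps were also above 0, with a median log2 ratio of 0.28. Pgam2 was the 1 gene of 29 at least 2-fold higher in rescue than in KO, where 1.31% of all genes were higher, and no gene of the set was 2-fold lower, where 0.575% were. At 1.5-fold, Pgam2, Eno3, Pygm and Pfkfb1 were higher, which is 4 of 29 where 3.85% of all genes were, and none was lower, where 2.76% were. The 11 counted muscle isoforms had log2 ratios of rescue over KO between -0.17 and 1.78 with a median of 0.35. The 9 counted ubiquitous or other-tissue isoforms stayed between -0.15 and 0.18 with a median of 0.03, and the median over all genes counted was 0.0072. With the length trend removed by the length of the highest row, the median was 0.23 for the muscle isoforms. It was -0.0047 for the ubiquitous or other-tissue isoforms and 0.15 for the single-gene steps. The marker genes of differentiated muscle had a median of 0.40 in the same comparison before the trend was removed and 0.31 after. Their part in the difference between the isoform classes was not tested.

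Against WT, the rescue library was 2-fold higher for Ldhb and Pfkfb3, as 2 of 29 genes where 4.62% of all genes were higher, and 2-fold lower for none, where 3.01% were. Scaling by total counts left Pfkfb3 just under 2-fold, so that 1 gene was higher. At 1.5-fold Slc2a4 joined these 2 genes, with 10.5% of all genes higher, and again none was lower, with 7.93% of all genes lower. The muscle isoforms had a median log2 ratio of rescue over WT of 0.27 and the ubiquitous ones of -0.10. Each library enters 2 of the 3 comparisons, so their values are set side by side for each gene and are not independent of each other.

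**Figure D1:**
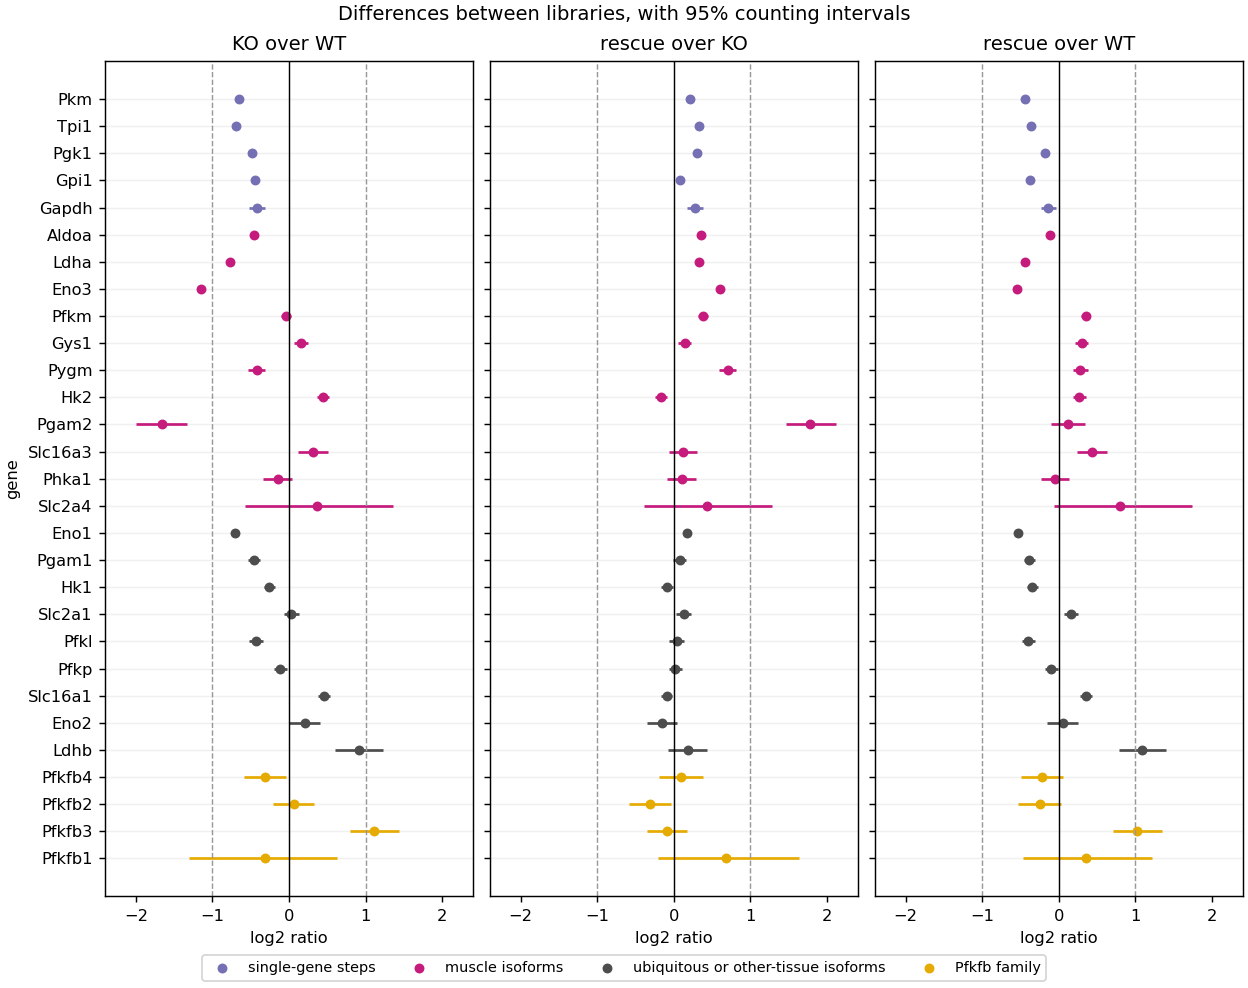
Log2 ratios of the 29 counted genes for KO over WT, rescue over KO and rescue over WT, with genes down the page, coloured by class; points are the ratios of scaled counts, horizontal bars the 95% counting intervals, and dashed lines mark 2-fold. Pgam2 lies at -1.65 in KO over WT and 1.78 in rescue over KO, and Pfkfb3 and Ldhb lie on the higher side in both panels with WT as the denominator.

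None of the glucose transporter genes of the set that were counted passed 2-fold in any comparison. Slc2a1, which encodes the widely expressed transporter GLUT1, had 1890 counts in rescue, 1738 in KO and 1731 in WT, with a log2 ratio of 0.03 for KO over WT (interval -0.07 to 0.13). Slc2a4, the gene of the insulin-responsive transporter GLUT4, had 31, 23 and 18 counts in rescue, KO and WT, and at this depth its ratio of 1.74-fold for rescue over WT had an interval in log2 of -0.07 to 1.74. Slc2a3, the gene of GLUT3, had 9, 7 and 7 counts in rescue, KO and WT. Among these transporters GLUT1 had the most abundant transcript. In CPM per kilobase of transcript, Slc2a1 stood at 53.5 in rescue, 48.9 in KO and 47.9 in WT, and Slc2a4 at 0.798 in rescue, 0.589 in KO and 0.453 in WT.

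The hexokinases, which trap glucose as glucose 6-phosphate, had a larger share of the muscle form in both libraries derived from the knockout than in WT. Hk2, the main hexokinase of insulin-sensitive tissue, had 2507 counts in rescue, 2838 in KO and 2127 in WT. Hk1, the ubiquitous form, had 2567 counts in rescue, 2744 in KO and 3337 in WT. The ratio of Hk2 to Hk1 was 1.62-fold higher in KO than in WT (log2 0.70, interval 0.59 to 0.81) and 1.53-fold higher in rescue than in WT (log2 0.62, interval 0.50 to 0.73). Between rescue and KO it differed by -0.08 in log2, with an interval from -0.19 to 0.03. The next enzyme, glucose 6-phosphate isomerase (Gpi1), had 6544 counts in rescue, 6233 in KO and 8651 in WT, a log2 ratio of -0.45 for KO over WT.

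Phosphofructokinase commits the sugar to glycolysis. Its muscle subunit gene Pfkm had 4477 counts in rescue, 3444 in KO and 3593 in WT, so KO and WT differed by no more than counting error (log2 -0.04, interval -0.10 to 0.03). The rescue library stood 1.31-fold over KO. The liver-type gene Pfkl had 1875, 1840 and 2527 counts in rescue, KO and WT, and the platelet-type gene Pfkp had 2249, 2235 and 2462. Pfkm made up 70.5% of the summed Pfkm and Pfkl counts in rescue, 65.2% in KO and 58.7% in WT. These 3 shares do not overlap in their counting intervals, and their order differs from that of the share of Pgam2 in its pair, which was lowest in KO. Beside Pfkp, the share of Pfkm was 66.6% in rescue, 60.6% in KO and 59.3% in WT, and the intervals of KO and WT overlapped.

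The Pfkfb enzymes make and remove fructose 2,6-bisphosphate, the strongest activator of phosphofructokinase, and 1 of the 4 stood apart. Pfkfb3, the isoform with the highest kinase activity relative to its phosphatase activity, had 241 counts in rescue, 257 in KO and 121 in WT. It was 2.16-fold higher in KO than in WT (log2 1.11, interval 0.80 to 1.44) and 2.03-fold higher in rescue than in WT (log2 1.02, interval 0.71 to 1.35). Rescue and KO differed by no more than counting error (log2 -0.09, interval -0.35 to 0.17). Pfkfb4 had 206, 194 and 245 counts in rescue, KO and WT, Pfkfb2 had 195, 243 and 237, and Pfkfb1 had 29, 18 and 23. The interval of the 1.60-fold ratio of rescue over KO for Pfkfb1 ran in log2 from -0.20 to 1.63.

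From aldolase to lactate dehydrogenase, every counted gene except Eno2 and Ldhb had a lower level in KO than in WT, most by less than 2-fold. Aldoa, the aldolase of muscle and many other cells, had 21930 counts in rescue, 17256 in KO and 24194 in WT, and the brain form Aldoc had 1, 0 and 11. Tpi1, triose phosphate isomerase, had 8888 counts in rescue, 7115 in KO and 11691 in WT, which put KO 1.61-fold below WT. Gapdh had 1620, 1343 and 1824 counts in rescue, KO and WT. Pgk1, phosphoglycerate kinase, had 10468, 8514 and 12145, and Pkm, pyruvate kinase of muscle and proliferating cells, had 19869, 17270 and 27639. All 5 single-gene steps (Gpi1, Tpi1, Gapdh, Pgk1 and Pkm) had log2 ratios between -0.69 and -0.42 for KO over WT and between 0.08 and 0.33 for rescue over KO. Against WT the rescue library lay between -0.44 and -0.14. The tables give nearly the same count to each Pkm transcript, so the PKM1 and PKM2 splice forms cannot be told apart. Gapdh, Pgk1, Tpi1, Pgam1, Eno1 and Ldha have processed copies elsewhere in the genome, and no source used here tells how reads matching several places were counted. Gapdh stood at 87.5 in rescue, 72.2 in KO and 96.2 in WT in CPM per kilobase, against 566 for Tpi1 in WT, and its level is uncertain for that reason.

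**Figure D2:**
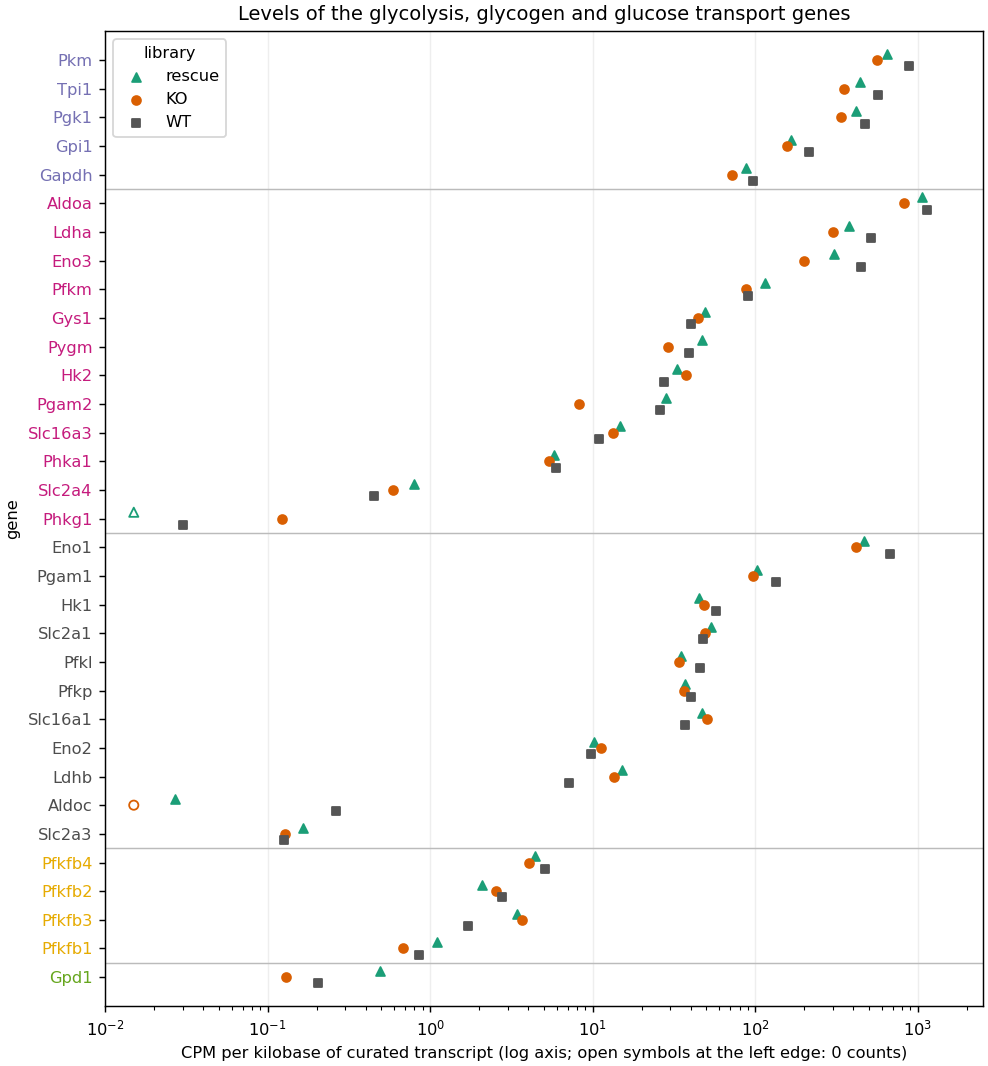
Level of each of the 33 genes in rescue, KO and WT as CPM per kilobase of curated transcript, on a log axis, with genes down the page and name colours marking the class (single-gene steps, muscle isoforms, ubiquitous or other-tissue isoforms, Pfkfb genes, Gpd1). Aldoa is the highest in each library (1056, 826.5 and 1139 in rescue, KO and WT), and Pgam2 lies lower in KO than in the other libraries (28.4, 8.23 and 25.99 in rescue, KO and WT).

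Among the 10 isoform pairs compared, phosphoglycerate mutase had the largest difference in ratio between rescue and KO. Pgam2, the muscle form, had 353 counts in rescue, 103 in KO and 331 in WT. KO was the 1 low library, and rescue and WT differed by 1.09-fold, with a log2 interval of -0.09 to 0.35. Pgam2 was 3.15-fold lower in KO than in WT (log2 -1.65, interval -1.99 to -1.34) and in rescue 3.43-fold higher than in KO (log2 1.78, interval 1.46 to 2.12). Pgam1, the ubiquitous form, had 2571, 2455 and 3429 counts in rescue, KO and WT. Pgam2 made up 12.1% of the counts of the pair in rescue, 4.03% in KO and 8.80% in WT. Relative to Pgam1 it was 2.29-fold lower in KO than in WT, and 3.26-fold higher in rescue than in KO.

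Enolase followed with smaller differences. Eno3, the muscle enolase, had 6370 counts in rescue, 4214 in KO and 9489 in WT. It was 2.21-fold lower in KO than in WT (log2 -1.15, interval -1.20 to -1.09), 1.52-fold higher in rescue than in KO, and 1.46-fold below WT in rescue (log2 -0.54). Eno1, the ubiquitous enolase, had 11441 counts in rescue, 10187 in KO and 16856 in WT. As both genes were lowest in KO, the share of Eno3 in their summed counts varied less, with 35.8% in rescue, 29.3% in KO and 36.0% in WT. The ratio of Eno3 to Eno1 differed by -0.44 in log2 between KO and WT (interval -0.51 to -0.38) and by -0.02 between rescue and WT (interval -0.07 to 0.04). Eno2, the neuronal form, had 392, 438 and 387 counts in rescue, KO and WT.

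Lactate dehydrogenase had a different balance of subunit transcripts in both knockout-derived libraries than in WT. Ldha, the muscle subunit that favours lactate formation, had 8935 counts in rescue, 7150 in KO and 12425 in WT. Ldhb, the heart subunit, had 273 counts in rescue, 242 in KO and 131 in WT, so its count was 2.13-fold higher in rescue than in WT after scaling (log2 1.09, interval 0.79 to 1.40). For KO over WT its log2 ratio was 0.91 (interval 0.60 to 1.23), under the 2-fold threshold. Ldha remained 97.0% of the counts of the pair in rescue and 96.7% in KO, against 99.0% in WT. The ratio of Ldha to Ldhb was 3.21-fold lower in KO than in WT (log2 -1.68, interval -2.0 to -1.37) and 2.89-fold lower in rescue than in WT (log2 -1.53, interval -1.85 to -1.23). Between rescue and KO it differed by 0.15, with an interval from -0.11 to 0.41. This was the largest difference of KO from WT among the 10 isoform pairs compared.

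The lactate transporters differed less. Slc16a1, the gene of MCT1, had 2868 counts in rescue, 3081 in KO and 2292 in WT, and Slc16a3, the gene of the exporter MCT4 of glycolytic muscle, had 503, 466 and 382. Their ratio differed by -0.14 in log2 between KO and WT, with an interval that included 0 (-0.35 to 0.07). Gpd1, the cytosolic glycerol 3-phosphate dehydrogenase that links glycolysis to triglyceride synthesis, had 19, 5 and 8 counts in rescue, KO and WT, too few for the counts to be compared here.

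Among the counted glycogen genes of the set, muscle phosphorylase had the largest ratio of rescue over KO. Pygm, which releases glucose 1-phosphate from muscle glycogen, had 1865 counts in rescue, 1152 in KO and 1570 in WT. KO was again the lowest library, 1.34-fold below WT, and rescue stood 1.63-fold above KO (log2 0.70, interval 0.60 to 0.81). Pygb, the brain phosphorylase and its partner outside the set, had 921, 1015 and 816 counts in rescue, KO and WT. Pygm therefore made up 66.9% of the phosphorylase counts in rescue, 53.2% in KO and 65.8% in WT. Relative to Pygb it was 1.70-fold lower in KO than in WT (log2 -0.76, interval -0.94 to -0.59), 1.78-fold higher in rescue than in KO, and different from WT in rescue by no more than counting error (log2 0.07, interval -0.10 to 0.24). Gys1, muscle glycogen synthase, had 2494 counts in rescue, 2272 in KO and 2075 in WT. Its liver partner Gys2 had 0 counts in all 3 libraries.

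Phosphorylase kinase, which switches phosphorylase on, had no subunit gene past 2-fold among those counted. Its muscle regulatory subunit Phka1 had 479 counts in rescue, 448 in KO and 506 in WT, and the liver form Phka2 had 897, 1010 and 1410. The ratio of Phka1 to Phka2 was 1.24-fold above WT in KO (log2 0.31, interval 0.08 to 0.53) and 1.49-fold above WT in rescue (log2 0.57, interval 0.35 to 0.79). The muscle catalytic subunit Phkg1 had 0, 4 and 1 counts in rescue, KO and WT, while the partner Phkg2 had 202, 187 and 222.

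Over the 10 pairs with enough counts, muscle isoforms did not all vary in 1 direction. In Pgam2:Pgam1, Pygm:Pygb and Eno3:Eno1 the muscle share was lowest in KO, and in Hk2:Hk1, Pfkm:Pfkl and Phka1:Phka2 it was lowest in WT. Ldha:Ldhb was highest in WT. Slc2a4:Slc2a1 had intervals that included 0 in every comparison, and the remaining pairs were Pfkm:Pfkp and Slc16a3:Slc16a1. A share within a pair is a share of counts and does not compare the levels of genes of different length. Aldoa:Aldoc, Phkg1:Phkg2 and Gys1:Gys2 were left out because 1 gene of each stayed under 20 counts. The classes were also not all muscle-specific, as Aldoa, Ldha, Hk2, Slc16a3 and Gys1 are expressed in many tissues. Over the 7 muscle-restricted isoforms, of which 6 were counted, the median log2 ratio was -0.29 for KO over WT, 0.52 for rescue over KO and 0.20 for rescue over WT.

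**Figure D3:**
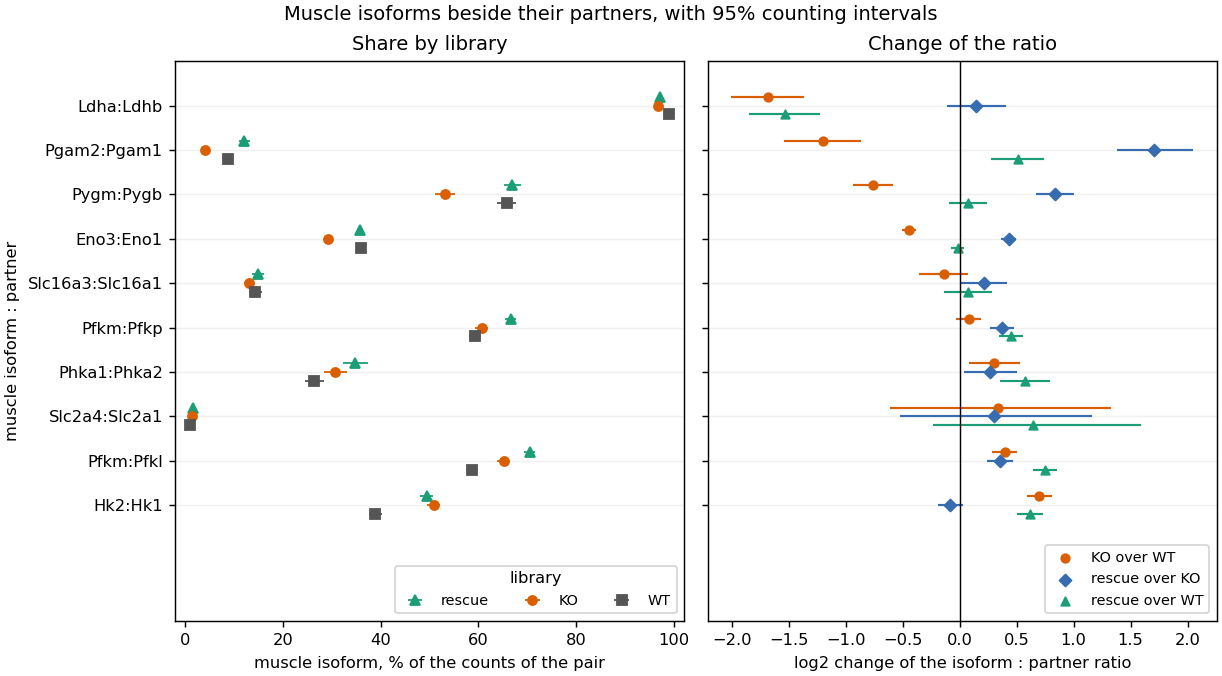
Left, the muscle isoform's share of the counts of its pair in rescue, KO and WT; right, the log2 change of the ratio for KO over WT, rescue over KO and rescue over WT, both with 95% counting intervals as bars. Pgam2 takes 12.1%, 4.03% and 8.80% of its pair in rescue, KO and WT, and the ratio of Ldha to Ldhb lies at -1.68 in KO over WT and -1.53 in rescue over WT.

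Many of the genes lowest in KO have short transcripts, and the ratios of the KO library varied with transcript length over the whole table. Among protein-coding genes with at least 100 counts, the shortest decile (median 963 bases) had a median log2 ratio of -0.21 for KO over WT and 0.23 for rescue over KO, and the longest decile (median 9752 bases) had 0.19 and -0.20. The curated transcript of Pgam2 has 906 bases, that of Eno3 1492 and that of Ldha 1719, whereas that of Pfkfb3 has 5068. With the trend over curated lengths subtracted, the log2 ratio of KO over WT was -1.47 for Pgam2, -1.03 for Eno3, -0.68 for Ldha and 1.02 for Pfkfb3. Ldhb, with 1304 bases, then passed 2-fold in KO over WT at 1.05. What produced the trend was not tested.

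**Figure D4:**
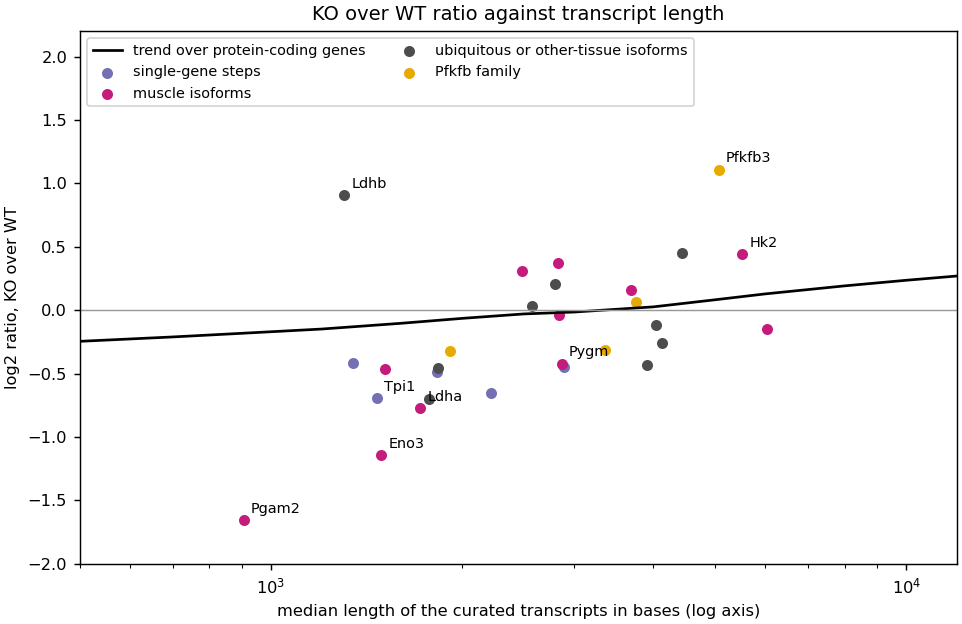
Log2 ratio of KO over WT for the 29 counted genes against the median length of their curated transcripts on a log axis, coloured by class, with the trend over protein-coding genes as a line. Pgam2 (906 bases, -1.65) and Eno3 (1492 bases, -1.15) lie far below the line, and Ldhb (1304 bases, 0.91) lies far above it.

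Among genes of the same pathways outside the set, 17 further glycogen genes were counted, of which 1 was 2-fold higher in KO than in WT (5.35% of all genes) and 1 lower (4.07%). The higher one was Stbd1 and the lower one Ppp1r3a. Stbd1, which tethers glycogen to membranes and takes part in its lysosomal breakdown, had 2491 counts in rescue, 2820 in KO and 1364 in WT, and a log2 ratio of KO over WT of 1.07 (interval 0.98 to 1.17). Ppp1r3a, the muscle glycogen-targeting subunit of protein phosphatase 1, had 7, 3 and 32 counts in rescue, KO and WT, and was named after its values were seen. It reached a mean of 1 CPM only through WT, so its call carries no weight, and the interval of its log2 ratio of rescue over KO ran from -0.90 to 3.81. Of 16 counted genes of glucose transport, lactate and sugar phosphate metabolism, 1 was 2-fold higher in KO than in WT and 2 were lower, beside the same shares of all genes. Pck2, the mitochondrial enzyme that makes phosphoenolpyruvate from oxaloacetate, had 1951 counts in rescue, 2184 in KO and 682 in WT (log2 1.70 for KO over WT). Slc2a6, a lysosomal member of the glucose transporter family, had 85 counts in rescue, 45 in KO and 624 in WT (log2 -3.75). Emb, embigin, an accessory protein of lactate transporters, had 44, 46 and 101 counts in rescue, KO and WT (log2 -1.10). The same 3 genes differed 2-fold between rescue and WT, where 4.62% of all genes were higher and 3.01% lower. Their log2 ratios were 1.55 for Pck2, -2.84 for Slc2a6 and -1.16 for Emb. None of the 16 differed 2-fold between rescue and KO, where only 1.31% of all genes were higher and 0.575% lower.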

How the data were processed

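RNA-seq libraries of rescue, KO and WT cells (1 each) were analysed. TRIzol extraction and a DNBSEQ-G400RS kit were used, per the labels' protocols. The submitters' processing notes name the build GRCm39 (mm39), featureCounts 2.0.0, HISAT2 2.2.1 and cutadapt 1.9.1. No source used here gives their settings or the use of strand. Each deposited table held 139023 transcript rows with a length. The deposited counts were unnormalized whole numbers, per the file headers. The deposited RPKM and TPM were recomputed from counts and lengths to within 4.98e-06 and 4.40e-06 and were not used further. Transcript rows of 1 gene carried nearly equal counts in the deposited tables, so rows were not added up.

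From the counts, the row with the highest total per gene was taken, except for levels, which used the median count and median length over curated (NM) rows. Using the median was decided after the data were seen, because highest rows such as that of Eno3 (5022 bases) can be far longer than the curated transcript. Scaling used TMM factors from edgeR 4.0.16 in R 4.3.3. Log2 ratios had 0.5 added to each count, and genes with a mean of 1 CPM were counted, as higher or lower at 2-fold, and also at 1.5-fold. Intervals of the ratios of single genes are exact conditional Clopper-Pearson intervals, and those of shares are Clopper-Pearson. Those of isoform pair ratios are exact intervals of the conditional odds ratio of the 2 x 2 table of counts. Intervals cover counting error only, as no source names molecular identifiers and reads without them are not separate molecules. No p-value, standard error or set test was computed, since each group had 1 library. The interval calculation was tested on simulated counts. The length trend was a lowess fit (fraction 0.3, statsmodels 0.14.6) over protein-coding genes.

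The 33 genes and all gene lists (other glycogen genes, other glycolysis and lactate genes, pentose phosphate pathway, hypoxia and Hif1a targets, markers of differentiated muscle, myoblasts, fibroblasts, adipocytes, neurons and hepatocytes) were chosen with earlier results of these data known. Values are given for both genes of each isoform pair, for every gene of the set at least 1.5-fold different in a comparison and for the single-gene steps. A listed gene outside the set is named if at least 2-fold different with 50 or more counts in the higher library, and other names were chosen after their values were seen. Alternatives were other scalings, row choices, filters, added counts, thresholds, removal of the length trend and a narrower muscle class.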

Additional observations from a re-analysis of the deposited data

How the results depend on the processing

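No paired analysis was possible because each group had 1 library and the labels give no replicate numbers, and for the same reason no replicate could be left out. No difference past 2-fold changed sign under any alternative run. With the length trend removed by the highest row, 4 ratios near 0 crossed it, namely KO over WT of Pfkm (0.0022) and Pfkfb2 (-0.09) and rescue over KO of Pgam1 (-0.03) and Ldhb (-0.0047), as did the median of the ubiquitous isoforms in rescue over KO (-0.0047). By curated lengths those of Pgam1 (-0.01) and Pfkfb3 (0.02) in rescue over KO crossed 0, by either other choice of rows that of Pfkfb2 in KO over WT, and by total counts that of Pfkp in rescue over KO (-0.005). DESeq2 size factors, a mean of 10 CPM, the median over curated rows and the sum over rows moved none of the 6 counts of genes past 2-fold by more than 1.5 times. Genes of the set 2-fold higher in rescue than in WT numbered 1 under scaling by total count and with 5 added to each count, against 2 in the main analysis, because Pfkfb3 lies near the threshold. Genes 2-fold higher in KO than in WT numbered 2 with the length trend removed by either length, with no filter on low counts and at 1.5-fold, against 1. With no filter, 3 genes were higher and 1 lower in rescue than in KO, and 2 were lower in rescue than in WT, from genes with few counts. At 1.5-fold, 6 genes were lower in KO than in WT and 4 were higher in rescue than in KO. Removing the trend with the length of the highest row gave a median of -0.28 for ubiquitous isoforms in KO over WT and of 0.23 for muscle isoforms in rescue over KO. The curated lengths, added after the data were seen, gave -0.14 for the first and 0.24 for the second. The muscle-restricted isoforms, also added then, gave 0.52 for the second. By the highest row, the ratio of Pfkm to Pfkp was 0.30 in KO over WT and 0.14 in rescue over KO, and that of Eno3 to Eno1 was -0.61 and 0.62. The highest rows of Eno3 (5022 bases) and Pfkp (10431 bases) are much longer than their curated transcripts (1492 and 4033 bases), and with curated lengths these 2 ratios moved by less than their counting intervals.

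Precision is set by 1 library of about the same depth per group. Counting intervals say nothing of the variation between cultures, and genes with under 50 counts, such as Slc2a4, Pfkfb1 and Gpd1, have wide ones. The KO library stands apart from the others by transcript length. This touches short genes such as Pgam2, Tpi1 and Gapdh and, in the other direction, long ones such as Phka1 and Hk2. Reads of processed copies were not separated from those of their genes.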

Other observations

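The pentose phosphate pathway, which branches from glucose 6-phosphate, held no gene that differed 2-fold between any 2 libraries among the 12 counted, where 5.35% of all genes were higher and 4.07% lower in KO than in WT, so that a count of 0 among 12 is near the background. Its genes had a median log2 ratio of 0.05 for KO over WT, -0.05 for rescue over KO and -0.01 for rescue over WT. The oxidative enzyme gene Pgd had 1184 counts in rescue, 1211 in KO and 1963 in WT, whereas Tkt, transketolase of the non-oxidative branch, had 654, 776 and 499, and Prps2, which turns ribose 5-phosphate into the nucleotide precursor PRPP, had 492, 584 and 353. These 3 genes were named after their values were seen.

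Targets of the hypoxia factor HIF-1 include many glycolytic genes, and the 22 counted genes of the hypoxia list had a median log2 ratio of -0.04 for KO over WT. Ddit4, an inhibitor of mTORC1 that stress also induces, was higher in KO than in WT (674 against 296 counts, log2 1.21), and had 647 counts in rescue. Vegfa, the endothelial growth factor gene, had 3318 counts in rescue, 3190 in KO and 1684 in WT, and was 2-fold higher in rescue than in WT (log2 1.01). Ankrd37 was lower in KO than in WT, with 23 counts in rescue, 26 in KO and 63 in WT. Car9, a membrane carbonic anhydrase that is a close marker of HIF-1 activity, had 41 counts in rescue, 4 in KO and 23 in WT and was named after its values were seen. Hif1a itself had 3948, 4723 and 3042 counts in rescue, KO and WT. Of the 22 genes 10 had ratios of KO over WT above 0 and 12 below, and 1 was 2-fold higher and 2 were lower, where 5.35% and 4.07% of all genes were. The 2 lower genes were Ankrd37 and Car9. Car9 reached a mean of 1 CPM only through rescue and WT, so its call carries no weight. Of the 7 myoblast markers 6 were counted, with a median log2 ratio of 0.07 for KO over WT, 3 above 0 and 3 below. Id1 (0.73), Vcam1 (0.43) and Id3 (0.33) were higher in KO, and Myf5 (-0.60) and Itga7 (-0.19) were lower. Cdh15, M-cadherin, was more than 2-fold lower in KO, as 1 of 6 where 4.07% of all genes were lower. It had 3318, 2756 and 9651 counts in rescue, KO and WT. Its log2 ratio was -1.78 for KO over WT and -1.51 for rescue over WT.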
